A study of Drosophila melanogaster with 30 samples.

Results

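The genes described here encode factors of Piwi-directed silencing in the nucleus and of the heterochromatin that follows it: *piwi*, *Panx*, *nxf2*, *arx*, *mael*, *egg*, *wde*, *HP1a* (also called *Su(var)2-5*) and *Su(var)3-9*. They were chosen by symbol and not by any measured value, and make up 9 of the 17807 genes listed in each of 4 tables of *Drosophila melanogaster* RNA-seq. The study asked which transcription factor controls the germline piRNA pathway of the fly ovary, and 30 libraries of 9 conditions were used here. FACS-sorted *vas*-GFP+ cells (germline, 3 libraries) and *vas*-GFP− cells (somatic, 3 libraries) came from ovaries of female *vas*-EGFP flies, in which the endogenous *vas* gene carries the tag (strain w[*]; TI{TI}vas[AID:EGFP]), whose age is not given in the sources used here. The untreated cell lines were fGS/OSS, a wild-type coculture of female germline stem cells and ovarian somatic sheet cells (4 libraries), Δ*l(3)mbt* OSCs, a knockout line derived from ovarian somatic cells (4 libraries), and wild-type OSCs, a cultured somatic line (4 libraries). In 2 further experiments, Δ*l(3)mbt* OSCs and OSCs were nucleofected with *ovo-FLAG*, which encodes the Ovo-B isoform under the *act5C* promoter, or with the empty vector, and were harvested 48 h later (3 libraries each). Sorted cells and untreated lines were sequenced as total RNA without ribosomal RNA, and nucleofected cells as poly(A) RNA, so levels are compared only within a table.

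Piwi, guided by piRNAs, binds nascent transposon transcripts in the nucleus, and a complex of Panoramix (*Panx*), Nxf2 and its partners carries the silencing signal to chromatin. Asterix (*arx*, also called Gtsf1) binds Piwi and is needed for its silencing, and Maelstrom (*mael*) acts at a late step. Eggless (*egg*) is the SETDB1 methyltransferase that places methylation on histone H3 lysine 9, Windei (*wde*) is its cofactor, HP1a binds the mark, and *Su(var)3-9* encodes another methyltransferase of the same residue. The nuclear pathway acts both in germ cells and in the somatic follicle cells, whereas Aubergine and Ago3 work in the cytoplasm of germ cells.

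On the BDGP6 assembly, in the Ensembl release 115 annotation, *piwi* (FBgn0004872) lies at 2L:10982205-10987420 and *HP1a* (FBgn0003607) at 2L:8209626-8211122. On the right arm of the second chromosome are *Panx* (FBgn0034617, 2R:21310368-21312354), *egg* (FBgn0086908, 2R:24775534-24779901) and *wde* (FBgn0027499, 2R:10800420-10808938). On the left arm of the third are *nxf2* (FBgn0036640, 3L:16576859-16580306), *arx* (FBgn0036826, 3L:18900595-18901554) and *mael* (FBgn0016034, 3L:22721203-22726234), and *Su(var)3-9* (FBgn0263755, 3R:15259864-15263458) is on the right arm. All lie on the minus strand except *mael*. Values are summed over the exons of a gene. Exons of *Su(var)3-9* share 352 of 2386 bases (14.8%) with *eIF2gamma* on the same strand, and exons of *nxf2* share 630 of 2917 bases (21.6%) with an annotated *TART-A* transposon insertion that has no row in the tables, so both values carry that uncertainty.

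The libraries held medians of 4.89 M counted reads in GFP+ and 9.09 M in GFP− cells, of 11.3 to 12.6 M in the 3 untreated lines, and of 3.71 to 11.5 M in the 4 nucleofected groups, with the lowest, 1.63 M, in 1 Δ*l(3)mbt* OSC library with the empty vector (replicate 3). The label checks followed the groups for *ovo*, which averaged 5426 normalized counts in GFP+ against 61.8 in GFP− cells, and 649 in *ovo-FLAG* OSCs against 9.50 in OSCs with the empty vector, where plasmid transcripts add to the gene's own. RNA of *l(3)mbt* averaged 5724 ± 215 in Δ*l(3)mbt* OSCs and 5770 ± 774 in OSCs (SD, n = 4 each), so the gene's summed count did not separate the lines, and which exons hold the reads cannot be seen in these tables. The somatic gene *tj* averaged 524 normalized counts in GFP+ against 7925 in GFP− cells, and *vas* 4632 against 36.3. The paper describes the replicates as coming from distinct samples. Neither it nor the labels state that these were separate cultures or animals, so p-values measure only the spread between these libraries.

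All 9 genes were measured in every library, and all passed the filter on low values (a mean of 2) in every comparison. Levels between genes can be compared only per kilobase of exon. On that scale *piwi* had the highest mean in all 9 conditions, at 2037 normalized counts per kb in GFP+ and 1322 in GFP− cells, and at 4865 in fGS/OSS, 4556 in Δ*l(3)mbt* OSCs and 4268 in OSCs. *HP1a* was the next in all 9 conditions, at 1101 per kb in GFP+ and 739 in GFP− cells. The members that changed place most were *nxf2* and *egg*. *nxf2* had the lowest mean of the 9 genes in GFP+ cells, at 102 per kb, and ranked 3 in GFP− cells, at 374, whereas *egg* ranked 4 in GFP+ cells, at 329, and 8 in GFP− cells, at 154. In GFP+ cells the means below *HP1a* ran from 436 (*mael*) over 329 (*egg*), 247 (*wde*), 234 (*arx*), 137 (*Su(var)3-9*) and 125 (*Panx*) to 102 (*nxf2*). Of these, *egg* and *wde*, *wde* and *arx*, *Su(var)3-9* and *Panx*, and *Panx* and *nxf2* were neighbours whose means lay within the larger SD of the pair. In the 3 untreated lines *wde* and *Su(var)3-9* held the 2 lowest places, between 103 and 180 per kb.

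**Figure D1:**
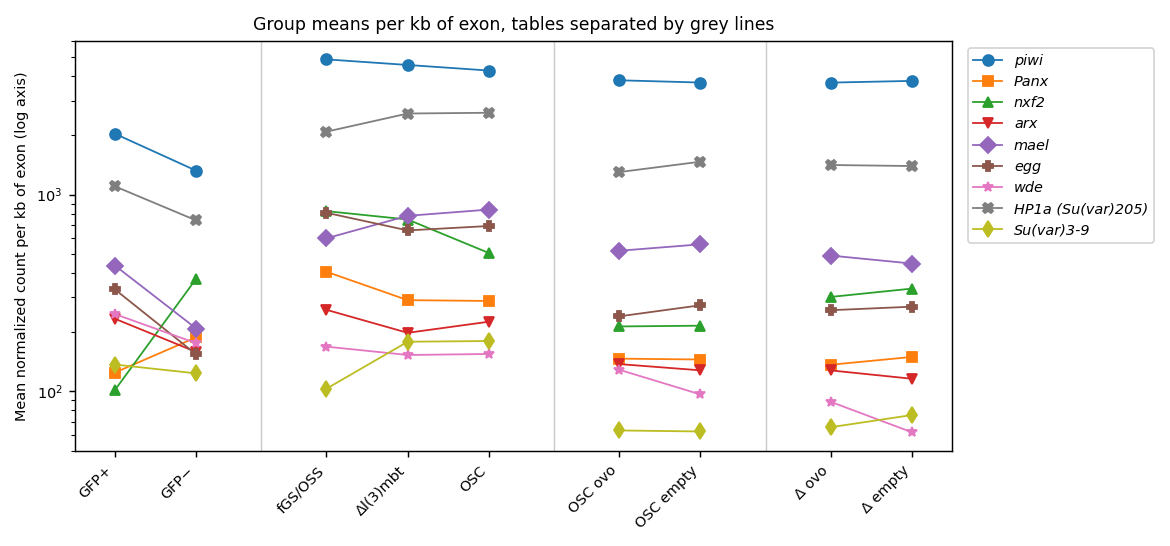
Mean normalized count per kb of exon (log axis) of the 9 genes in the 9 conditions, each marker a group mean and each line a gene within 1 table (Δ, Δ*l(3)mbt* OSCs; ovo and empty, the *ovo-FLAG* and empty vectors). *piwi* is highest throughout, and *nxf2* is at 102 per kb in GFP+ and 374 in GFP− cells.

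The sorted cells ask which of these genes differ between germline and soma of the ovary. By limma on log2(normalized count + 1), 6 of the 9 genes changed at an adjusted p under 0.05, where 35.7% of the 10481 genes tested did. *piwi*, *mael*, *egg* and *HP1a* were higher in GFP+ cells and *nxf2* and *Panx* were lower, with 16.0% of all genes higher and 19.7% lower. No library of one group reached the other for 7 of the 9, and for 49.9% of all genes. The median log2 fold change of the 9 was 0.51, and that of all genes was −0.07.

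The largest difference was that of *nxf2*, the RNA-export-factor relative in the silencing complex. *nxf2* had 239.8, 335 and 314 normalized counts in GFP+ cells, against 1044, 1091 and 1138 in GFP− cells. Every GFP+ library was below every GFP− library, with a level of 0.27 of the somatic one. The log2 fold change was −1.89 ± 0.15 (SE, n = 3 each; limma adjusted p = 6.02e-05), and it lay between −1.99 and −1.45 over the 16 alternative settings, with every adjusted p at 0.0013 or less.

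Its partner *Panx* had 190.0, 284 and 269 normalized counts in GFP+ cells, against 407, 353 and 361 in GFP− cells. The groups did not overlap, and the difference was smaller than that of *nxf2* (log2 fold change −0.61 ± 0.20, SE, n = 3 each; limma adjusted p = 0.046). This call was lost under 8 of 16 alternatives, among them scaling to CPM (log2 fold change −0.17, limma adjusted p = 0.51) and leaving out any 1 of the 3 GFP− libraries or GFP+ replicate 1. The ratio of *nxf2* to *Panx* within a library, which no scaling between libraries can change, was 0.860, 0.804 and 0.795 per kb in GFP+ cells, against 1.75, 2.10 and 2.15 in GFP− cells. The 2 groups stood apart in this ratio (exact permutation test, two-sided, p = 0.10, the smallest that 3 against 3 libraries allow; adjusted p = 0.17 over 12 ratio tests), and the pair was chosen after its values were seen.

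*egg*, the methyltransferase gene, had 1191, 1340.0 and 1359 normalized counts in GFP+ cells, against 662, 568 and 589 in GFP− cells. Each GFP+ library was above each GFP− library (log2 fold change 1.10 ± 0.11, SE, n = 3 each; limma adjusted p = 1.66e-04). Its cofactor *wde* had 1342, 1511 and 743 in GFP+ cells, against 919, 815 and 823 in GFP− cells. Here 1 GFP+ library was below all GFP− libraries and the other 2 were above them, and the difference was not past the threshold (log2 fold change 0.43 ± 0.25, SE, n = 3 each; limma adjusted p = 0.22). Without that library, GFP+ replicate 3, *wde* was higher in GFP+ cells (log2 fold change 0.74, limma adjusted p = 0.0017). *wde* was called under 2 of 16 alternatives, this one among them.

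*piwi* had 6536, 6163 and 6082 normalized counts in GFP+ cells, against 4043, 4236 and 3904 in GFP− cells. The GFP+ libraries were all above the GFP− libraries and the spread within each group was small (log2 fold change 0.62 ± 0.06, SE, n = 3 each; limma adjusted p = 1.26e-04). *mael*, which acts downstream of Piwi, had 1034, 1028 and 751 in GFP+ cells, against 458, 439 and 449 in GFP− cells. No libraries overlapped, and replicate 3 was the lowest of the GFP+ libraries (log2 fold change 1.05 ± 0.15, SE, n = 3 each; limma adjusted p = 0.0012).

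*HP1a*, the gene of the heterochromatin protein, had 1255, 1369.8 and 1037 normalized counts in GFP+ cells, against 836, 835 and 786 in GFP− cells, without overlap (log2 fold change 0.57 ± 0.12, SE, n = 3 each; limma adjusted p = 0.0086). *arx* had 166, 171 and 289 in GFP+ cells, against 131, 146 and 147 in GFP− cells. Both *arx* groups were separate as well, but the GFP+ libraries were spread and the difference was not past the threshold (log2 fold change 0.51, 95% interval −0.11 to 1.13, limma adjusted p = 0.18). For *Su(var)3-9* the GFP+ libraries, at 196, 274 and 364, lay on both sides of the GFP− libraries, at 258, 250.2 and 245 (log2 fold change 0.10, 95% interval −0.46 to 0.67, limma adjusted p = 0.77).

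The summed normalized count of 13 somatic ovary markers was 4889 to 6665 in GFP+ and 143403 to 151844 in GFP− cells, that of 11 germ cell markers was 27307 to 29489 in GFP+ and 3025 to 3183 in GFP− cells, and no marker of either list was at 0 in either group. Most of the germ cell sum in GFP− cells came from *egl*, at 2095 in GFP+ and 1906 in GFP− cells (log2 fold change 0.13, limma adjusted p = 0.28), and *BicD*, at 1401 in GFP+ and 761 in GFP− cells. The defining germ cell markers were far lower in GFP− cells, with *vas* at 4632 in GFP+ and 36.3 in GFP− cells, *ovo* at 5426 in GFP+ and 61.8 in GFP− cells and *nos* at 1772 in GFP+ and 18.3 in GFP− cells. Their part in the differences was not tested, and in such bulk samples fewer cells of a type and less RNA per cell cannot be told apart. Scaling to CPM moved the median log2 fold change of all genes by 0.42, and edgeR's TMM moved it by 0.12. Relative to GFP− cells, *piwi*, *mael*, *egg* and *HP1a* stayed higher and *nxf2* lower under each scaling, and *arx* and *wde* also passed the test under CPM (log2 fold changes 0.95 and 0.87, limma adjusted p = 0.022 and 0.029), where 70.1% of all calls were higher against 44.8% with the authors' scaling.

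**Figure D2:**
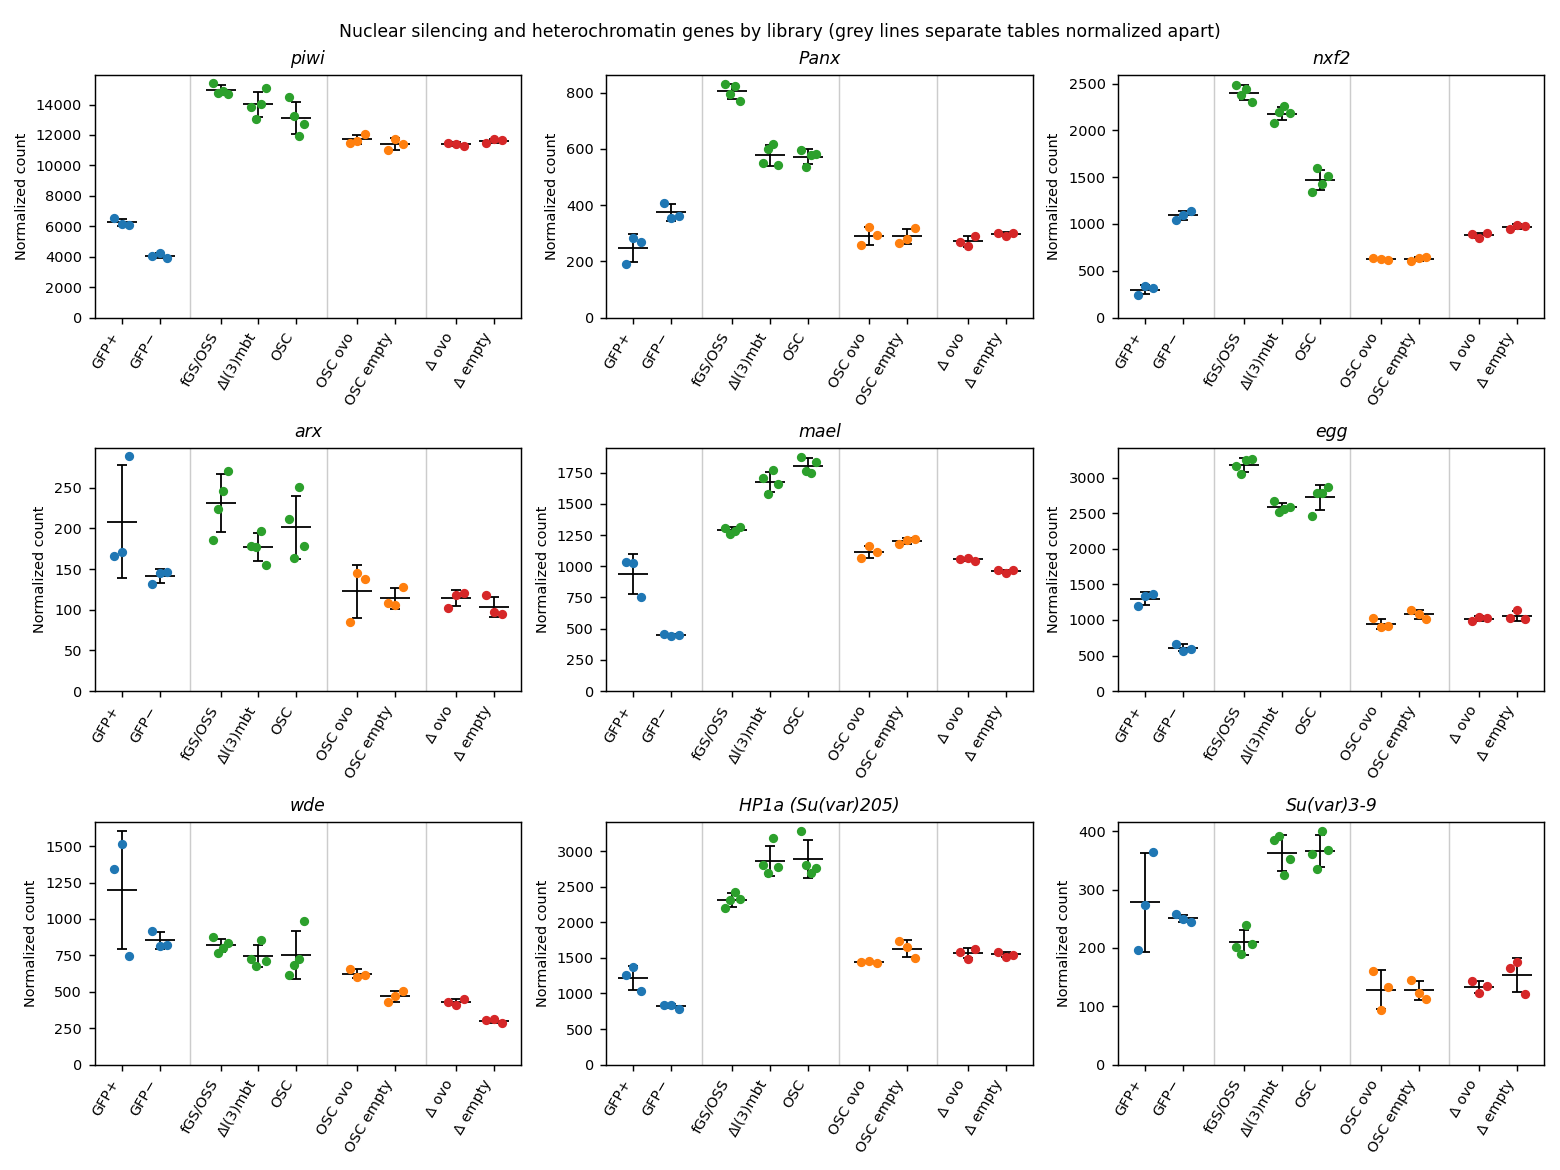
Normalized counts of the 9 genes in each of 30 libraries (y axis from 0; points, libraries; bars, mean ± SD), with grey lines between tables that were normalized apart. *nxf2* lies at 239.8 to 335 in GFP+ and 1044 to 1138 in GFP− cells, and *wde* lies higher with *ovo-FLAG* than with the empty vector in both lines.

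Other genes of the pathway were counted by list, where 16.0% of all genes were higher and 19.7% lower in GFP+ cells. Of 14 partners in silencing, 7 were higher and 2 lower in GFP+ cells. The highest rises were those of *ova* (log2 fold change 1.07), which helps to recruit the H3K4 demethylase, of *Su(var)3-3* (0.95), which encodes that demethylase, and of *smt3* (0.70), which encodes SUMO. *HDAC1* and *lwr*, the SUMO-conjugating enzyme, were lower (−0.41 and −0.28; limma adjusted p = 0.022 and 0.040). Of 15 tested heterochromatin proteins and histone methylation enzymes, 6 were higher and 2 lower. *HP4* was at 1.32, the H3K9 methyltransferase gene *G9a* at 1.22 and *vig* at −2.30. Among 12 tested paralogs of the 9 genes, 7 were higher and 2 lower, with the germline Argonautes *AGO3* at 7.33 and *aub* at 4.75, beside 0.62 for *piwi*, the Argonaute of the same clade that enters the nucleus.

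fGS/OSS, labelled as germline and somatic cells grown together, was set against OSCs. Of 8 tested germ cell markers, 6 were higher in fGS/OSS and 2 lower. *vas* averaged 530 normalized counts in fGS/OSS and 12.8 in OSCs, and *bam* 2410 in fGS/OSS and 81.5 in OSCs. *nos* was also higher, though low in both lines (4.75 in fGS/OSS and 0.47 in OSCs). *zpg* (2.05) and *osk* (0.25) were near 0 in fGS/OSS. *bgcn* was lower in fGS/OSS than in OSCs (36.6 in fGS/OSS and 69.4 in OSCs), as was *BicD*. The germline *piwi* paralogs *aub* and *AGO3* did not pass the test (log2 fold changes −0.25 and −0.28, limma adjusted p = 0.56 and 0.34). Of 13 tested somatic ovary markers, 8 were higher in fGS/OSS and 2 lower. Among them *tj* averaged 17155 in fGS/OSS and 7116 in OSCs, and *br* 285 in fGS/OSS and 3018 in OSCs. Of the members, again 6 of the 9 genes changed, where 61.6% of the 9533 genes tested did, 3 of them higher (30.3% of all genes) and 3 lower (31.3%). The libraries separated without overlap for 7 of the 9 genes and for 57.4% of all genes. Log2 fold changes of the 9 ran from −0.81 to 0.71.

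The 2 silencing complex genes were higher in fGS/OSS. *nxf2* had 2484, 2381, 2443 and 2304 normalized counts in fGS/OSS, against 1346, 1600.1, 1431 and 1507 in OSCs. All fGS/OSS libraries were above all OSC libraries (log2 fold change 0.71 ± 0.07, SE, n = 4 each; limma adjusted p = 3.73e-06). *Panx* had 829, 796, 825 and 771 in fGS/OSS, against 596, 535, 576 and 580.3 in OSCs, also without overlap (log2 fold change 0.49 ± 0.07, SE, n = 4 each; limma adjusted p = 4.40e-05). The sign of both was opposite to that in GFP+ against GFP− cells, which come from another table, and the difference between these effects was not tested.

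*Su(var)3-9* had 202, 189.8, 239 and 207 normalized counts in fGS/OSS, against 361, 336, 401 and 368 in OSCs. The groups were far apart for their spread, and this was the largest change of the 9 in this comparison (log2 fold change −0.81 ± 0.10, SE, n = 4 each; limma adjusted p = 1.95e-05). *mael* had 1305, 1258, 1278 and 1315 in fGS/OSS, against 1875, 1764, 1745 and 1838 in OSCs. Every fGS/OSS library was below every OSC library (log2 fold change −0.49 ± 0.06, SE, n = 4 each; limma adjusted p = 2.43e-05).

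*HP1a* was lower too, with 2195, 2316, 2425 and 2322 normalized counts in fGS/OSS, against 3291, 2802, 2696 and 2764 in OSCs (log2 fold change −0.32 ± 0.08, SE, n = 4 each; limma adjusted p = 0.0039). *egg* had 3165, 3047, 3256 and 3258 in fGS/OSS, against 2463, 2787, 2784 and 2865 in OSCs. The *egg* libraries were separate, with a small difference (log2 fold change 0.23 ± 0.07, SE, n = 4 each; limma adjusted p = 0.015) that was not past the threshold after quantile normalization (0.12, limma adjusted p = 0.098). *piwi* averaged 14949 ± 310 in fGS/OSS and 13116 ± 1067 in OSCs (SD, n = 4 each). Its groups did not overlap, but its difference missed the threshold (log2 fold change 0.19, 95% interval 0.02 to 0.37, limma adjusted p = 0.056), and passed it without OSC replicate 1, the highest of the OSC libraries for this gene (0.24, limma adjusted p = 0.0012). *piwi* was called under 5 of 20 alternatives, this one among them.

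For *arx* and *wde* the groups overlapped. *arx* averaged 232 ± 35.8 in fGS/OSS and 201 ± 38.8 in OSCs, and *wde* 819 ± 45.3 in fGS/OSS and 752 ± 163 in OSCs (SD, n = 4 each). The log2 fold changes were 0.21 (95% interval −0.13 to 0.54) and 0.15 (−0.12 to 0.42), with limma adjusted p = 0.26 and 0.33. Without OSC replicate 4, at 986 the highest OSC library for *wde*, the *wde* value was 0.28 (limma adjusted p = 0.0097). *wde* was called under 2 of 20 alternatives, this one among them.

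Δ*l(3)mbt* OSCs were set against the same 4 OSC libraries, so the comparisons share their controls. Only *nxf2* changed, 1 of 9 where 36.6% of the 9592 genes tested changed (19.4% higher and 17.2% lower). Groups without overlap were found for that 1 gene and for 36.2% of all genes. The median size of the log2 fold change was 0.07 over the 9 genes and 0.32 over all genes. This median was smaller for the 9 genes than for all genes in every other comparison too. It was 0.61 and 0.76 in GFP+ against GFP− cells, and 0.32 and 0.48 in fGS/OSS against OSCs. The 2 sets were not matched for level. Genes averaging as few as 2 normalized counts were included in all genes, whereas each of the 9 averaged 103 or more in every condition.

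*nxf2* had 2082, 2195, 2255 and 2183 normalized counts in Δ*l(3)mbt* OSCs, against 1346, 1600.1, 1431 and 1507 in OSCs. All knockout libraries were above all OSC libraries (log2 fold change 0.57 ± 0.08, SE, n = 4 each; limma adjusted p = 8.62e-05), and the value ranged from 0.47 to 0.61 over 20 alternatives. *Panx* had 549, 599, 619 and 542 in Δ*l(3)mbt* OSCs, against 596, 535, 576 and 580.3 in OSCs. These groups lay on top of each other (log2 fold change 0.01, 95% interval −0.16 to 0.19, limma adjusted p = 0.92). The ratio of *nxf2* to *Panx* per kb was 2.48 to 2.74 in Δ*l(3)mbt* OSCs, against 1.54 to 2.04 in OSCs, without overlap (exact permutation test, two-sided, p = 0.029, the smallest that 4 against 4 libraries allow; adjusted p = 0.17 over the 12 ratio tests).

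The other 7 genes had log2 fold changes from −0.17 (*arx*) to 0.10 (*piwi*), and the widest 95% interval was that of *arx* (−0.49 to 0.14). *piwi* averaged 14001 ± 825 in Δ*l(3)mbt* OSCs and 13116 ± 1067 in OSCs, and *HP1a* averaged 2863 ± 217 in Δ*l(3)mbt* OSCs and 2888 ± 272 in OSCs (SD, n = 4 each). *Su(var)3-9* averaged 363 ± 31.0 in Δ*l(3)mbt* OSCs and 366 ± 26.9 in OSCs. The methyltransferase gene *egg* averaged 2588 ± 63.4 in Δ*l(3)mbt* OSCs and 2725 ± 179 in OSCs. *mael* averaged 1678 ± 79.8 in Δ*l(3)mbt* OSCs and 1805 ± 61.1 in OSCs. *mael* passed the test under CPM (log2 fold change −0.20, limma adjusted p = 0.045).

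fGS/OSS against Δ*l(3)mbt* OSCs compares the 2 lines that express *ovo* (2941 normalized counts in fGS/OSS and 1842 in Δ*l(3)mbt* OSCs, with 19.3 in OSCs). Here 7 of the 9 genes changed, where 70.7% of the 9620 genes tested did, 4 higher (34.4% of all genes) and 3 lower (36.3%), and 6 of the 9 showed no overlap of libraries, as did 64.2% of all genes. *egg* had 3165, 3047, 3256 and 3258 normalized counts in fGS/OSS, against 2673, 2521, 2567 and 2590.4 in Δ*l(3)mbt* OSCs. *Su(var)3-9* had 202, 189.8, 239 and 207 in fGS/OSS, against 386, 391, 325 and 352 in Δ*l(3)mbt* OSCs. Libraries of the lines were apart for both genes, in opposite directions. *mael* had 1305, 1258, 1278 and 1315 in fGS/OSS, against 1705, 1579, 1768 and 1660.3 in Δ*l(3)mbt* OSCs. *HP1a* had 2195, 2316, 2425 and 2322 in fGS/OSS, against 2810, 2687, 3178 and 2777 in Δ*l(3)mbt* OSCs. Every fGS/OSS library was below every Δ*l(3)mbt* OSC library for these genes too. *Panx* (log2 fold change 0.48 ± 0.06), *egg* (0.30 ± 0.04), *arx* (0.38 ± 0.12) and *nxf2* (0.14 ± 0.05) were higher in fGS/OSS, and *Su(var)3-9* (−0.79 ± 0.10), *mael* (−0.38 ± 0.05) and *HP1a* (−0.30 ± 0.05) were lower (SE; limma adjusted p from 1.29e-06 to 0.011). *arx* groups overlapped, at 186 to 270.0 in fGS/OSS and 155 to 197 in Δ*l(3)mbt* OSCs. The *nxf2* call was lost when all 3 lines shared 1 fit (limma adjusted p = 0.066). *piwi* and *wde* did not pass (0.10 and 0.14; limma adjusted p = 0.086 and 0.082).

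Markers differed between the lines. Summed germ cell markers were 9141 to 9658 in fGS/OSS, 7361 to 8145 in Δ*l(3)mbt* OSCs and 2627 to 3500 in OSCs. Of that list *bgcn* (log2 fold change −0.89) and *BicD* (−0.26) were lower in fGS/OSS than in OSCs. The 13 somatic ovary markers summed to 43779 to 47129 in fGS/OSS, 31157 to 36253 in Δ*l(3)mbt* OSCs and 22308 to 29771 in OSCs, and 6 muscle sheath markers summed to 565 to 635 in fGS/OSS, 114 to 145 in Δ*l(3)mbt* OSCs and 5289 to 7096 in OSCs. Their part in the differences between lines was not tested. With only OSC replicates 2 and 3 kept, which differed least from each other, 8 of the 9 genes changed in fGS/OSS against OSCs. The added genes were *piwi* and *wde*. This pair was picked after seeing the data for its small spread, which by itself favours more calls. In Δ*l(3)mbt* OSCs against OSCs 1 of the 9 changed. Over all genes this setting called 6281 in fGS/OSS (5870 with all OSC libraries) and 3795 in Δ*l(3)mbt* OSCs (3510).

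In fGS/OSS against OSCs 30.3% of all genes were higher and 31.3% lower. In Δ*l(3)mbt* OSCs against OSCs 19.4% were higher and 17.2% lower. Of the 14 partners in silencing, 5 were higher and 6 lower in fGS/OSS against OSCs. In Δ*l(3)mbt* OSCs against OSCs 3 partners were higher and none (0) lower. The 3 were *ova* (log2 fold change 0.34), *ctp* (0.28), the gene of the dynein light chain that dimerizes the silencing complex, and *Su(var)2-10* (0.23), which encodes a SUMO ligase. Of 14 tested heterochromatin genes, 3 were higher and 4 lower in fGS/OSS, with the HP1-binding *Su(var)2-HP2* at 1.07 and the HP1 relative *HP1b* at −0.55. In Δ*l(3)mbt* OSCs 3 were higher and 2 lower, with *ADD1* at 0.62 and *HP1b* at −0.62. Among 12 tested paralogs, 4 were higher and 3 lower in fGS/OSS and 4 were higher and 4 lower in Δ*l(3)mbt* OSCs, and *rhi*, the germline HP1 relative, was lower in both (−3.22 and −2.63), with a mean of only 49.7 normalized counts in OSCs.

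**Figure D3:**
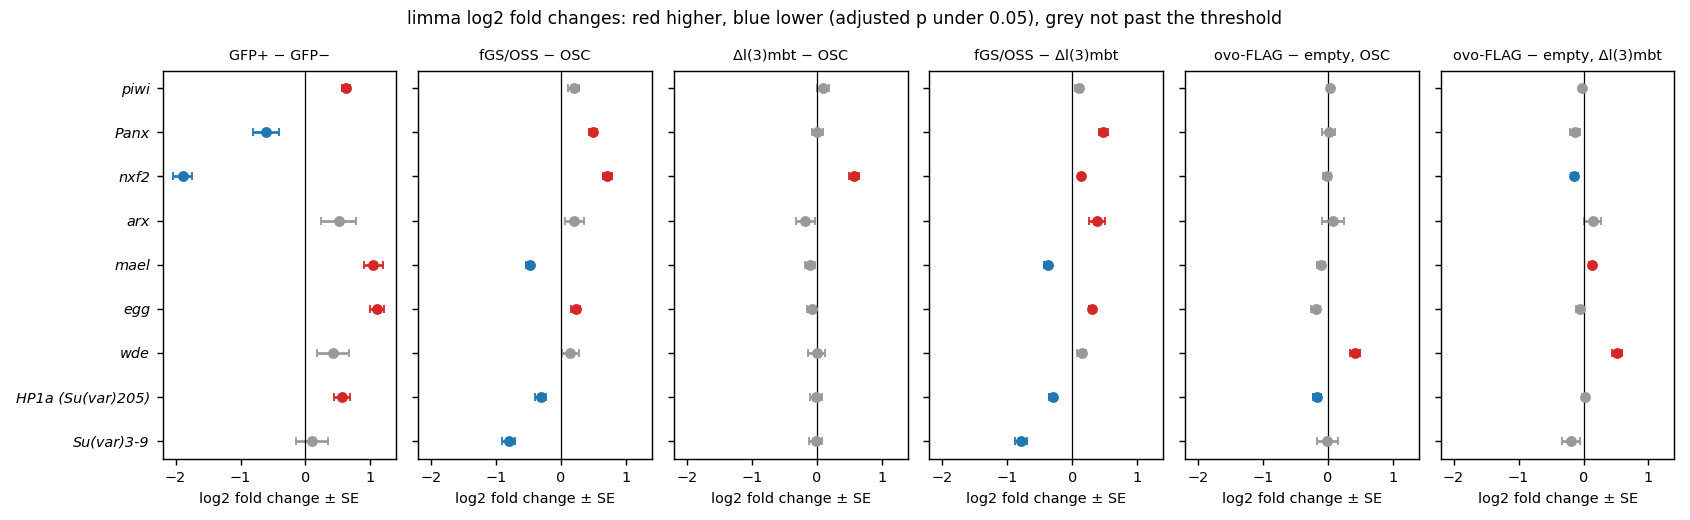
limma log2 fold changes ± SE (x axis) of the 9 genes in the 6 comparisons, red where higher and blue where lower at an adjusted p under 0.05, and grey otherwise. *nxf2* stands at −1.89 in GFP+ against GFP− cells and above 0 in both comparisons with OSCs, and *wde* is at 0.42 and 0.51 with *ovo-FLAG*.

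Ectopic *ovo* in OSCs asked whether a germline transcription factor alters these genes in somatic cells within 48 h. Of the 9 genes, 2 changed, where 23.5% of the 9025 genes tested did: *wde* was higher (13.2% of all genes) and *HP1a* was lower (10.3%). The libraries did not overlap for 3 of the 9 genes (*wde*, *HP1a* and *mael*), and for 37.4% of all genes.

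*wde*, the cofactor of Eggless, had 659, 599 and 618 normalized counts in *ovo-FLAG* OSCs, against 426, 472 and 506 in OSCs with the empty vector. All *ovo-FLAG* libraries were above all control libraries (log2 fold change 0.42 ± 0.08, SE, n = 3 each; limma adjusted p = 5.10e-04), and the call held under all 16 alternatives run. *egg* had 1023, 908 and 909 in *ovo-FLAG* OSCs, against 1134, 1086 and 1012 in OSCs with the empty vector. The *egg* groups overlapped by 1 library on each side, and the difference missed the threshold (log2 fold change −0.19 ± 0.07, SE, n = 3 each; limma adjusted p = 0.052, and 0.0046 to 0.20 over the 16 alternatives). The ratio of *egg* to *wde* per kb was 1.91, 1.87 and 1.81 in *ovo-FLAG* OSCs, against 3.28, 2.84 and 2.47 in OSCs with the empty vector, so that it did not overlap (geometric mean 0.66 of the control; exact permutation test, two-sided, p = 0.10, the smallest possible; adjusted p = 0.17 over the 12 ratio tests). This pair too was chosen after its values were seen, and its ratio restates the same *wde* counts.

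*HP1a* had 1436, 1462 and 1429 normalized counts in *ovo-FLAG* OSCs, against 1731, 1655 and 1501 in OSCs with the empty vector. All *ovo-FLAG* libraries were below all controls (log2 fold change −0.17 ± 0.06, SE, n = 3 each; limma adjusted p = 0.048), and the call was lost under 10 of 16 alternatives, among them leaving out either of empty vector replicates 1 and 2 or any 1 of the *ovo-FLAG* libraries (limma adjusted p from 0.054 to 0.21). *mael* had 1064, 1164 and 1116 in *ovo-FLAG* OSCs, against 1179, 1207 and 1219 with the empty vector. The difference in *mael* was not past the threshold (−0.11, 95% interval −0.23 to 0.02, limma adjusted p = 0.21).

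The other 5 genes did not pass the test. *piwi* averaged 11705 ± 315 in *ovo-FLAG* OSCs and 11399 ± 374 in empty vector OSCs (SD, n = 3 each; log2 fold change 0.04, 95% interval −0.06 to 0.14). *nxf2* averaged 623 ± 7.38 in *ovo-FLAG* OSCs and 629 ± 23.2 in empty vector OSCs (−0.01, −0.15 to 0.13), and *Panx* averaged 291 ± 32.0 in *ovo-FLAG* OSCs and 288 ± 28.2 in empty vector OSCs (0.01, −0.20 to 0.22). The intervals of the less abundant *arx* and *Su(var)3-9* were wider, at −0.28 to 0.43 and −0.35 to 0.34.

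In Δ*l(3)mbt* OSCs, which already express *ovo* (2398 normalized counts in *ovo-FLAG* libraries and 952 in controls), 3 of the 9 genes changed with *ovo-FLAG*, where 30.5% of the 9290 genes tested did: *wde* and *mael* were higher (16.2% of all genes) and *nxf2* was lower (14.2%). Overlap was absent for the same 3 genes and for 44.7% of all genes. *wde* had 429, 409 and 451 normalized counts in *ovo-FLAG* Δ*l(3)mbt* OSCs, against 308, 310.1 and 284 with the empty vector. Again every *ovo-FLAG* library was above every control (log2 fold change 0.51 ± 0.07, SE, n = 3 each; limma adjusted p = 2.48e-05), under all 16 alternatives. The effect on *wde* in Δ*l(3)mbt* OSCs minus that in OSCs was 0.09 (95% interval −0.13 to 0.31, limma adjusted p = 0.66).

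*mael* had 1055, 1065 and 1043 normalized counts in *ovo-FLAG* Δ*l(3)mbt* OSCs, against 966, 944 and 969 with the empty vector. The libraries within each group lay close together and the groups apart (log2 fold change 0.13 ± 0.05, SE, n = 3 each; limma adjusted p = 0.037). *nxf2* had 889, 850.5 and 901 in *ovo-FLAG* Δ*l(3)mbt* OSCs, against 944, 990.4 and 977 with the empty vector, without overlap (−0.14 ± 0.05, SE, n = 3 each; limma adjusted p = 0.041). The *mael* call was lost under 9 and the *nxf2* call under 10 of 16 alternatives. For both, leaving out empty vector replicate 2 or any 1 of the *ovo-FLAG* libraries ended the call (limma adjusted p from 0.053 to 0.16), and for *mael* also leaving out empty vector replicate 1 (limma adjusted p = 0.067).

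*mael* was the 1 gene of the 9 whose *ovo-FLAG* effects differed between the lines, where 9.64% of the 8706 genes tested did (3.46% higher and 6.18% lower in Δ*l(3)mbt* OSCs): −0.11 in OSCs and 0.13 in Δ*l(3)mbt* OSCs, a difference of 0.24 ± 0.07 (SE; limma interaction over 12 libraries, adjusted p = 0.032, and 0.015 to 0.080 over 22 alternatives). *egg* averaged 1017 ± 33.4 in *ovo-FLAG* Δ*l(3)mbt* OSCs and 1060 ± 68.2 with the empty vector (log2 fold change −0.06, limma adjusted p = 0.45). The ratio of *egg* to *wde* per kb was 2.81, 3.14 and 2.82 in *ovo-FLAG* Δ*l(3)mbt* OSCs, against 4.09, 4.53 and 4.42 with the empty vector, again without overlap (geometric mean 0.67 of the control; exact permutation test, two-sided, p = 0.10; adjusted p = 0.17 over the 12 ratio tests).

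*Su(var)3-9* averaged 134 ± 10.5 in *ovo-FLAG* Δ*l(3)mbt* OSCs and 154 ± 28.9 with the empty vector (SD, n = 3 each). The difference was not past the threshold (log2 fold change −0.19, limma adjusted p = 0.31), but without the shallow empty vector replicate 3, at 121, it was (−0.35, limma adjusted p = 0.011). *piwi* averaged 11390.4 ± 119 in *ovo-FLAG* Δ*l(3)mbt* OSCs and 11622 ± 128 in controls (−0.03, 95% interval −0.09 to 0.03), and *HP1a* averaged 1567 ± 69.6 in *ovo-FLAG* Δ*l(3)mbt* OSCs and 1548 ± 38.7 in controls (0.02, −0.08 to 0.11). *Panx* averaged 271 ± 18.9 in *ovo-FLAG* Δ*l(3)mbt* OSCs and 297 ± 5.47 in controls (−0.13, −0.30 to 0.04). *arx* was at 0.14 (−0.14 to 0.42).

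Marker sums also differed with *ovo-FLAG*. In OSCs the germ cell markers summed to 2227 to 2331 normalized counts in *ovo-FLAG* libraries and 1246 to 1264 in controls, the somatic ovary markers to 13558 to 14166 in *ovo-FLAG* libraries and 14955 to 16127 in controls, and the muscle sheath markers to 4879 to 5074 in *ovo-FLAG* libraries and 5523 to 6644 in controls. In Δ*l(3)mbt* OSCs the germ cell sum was 6663 to 6924 in *ovo-FLAG* libraries and 4146 to 4173 in controls, and the muscle sheath sum was 166 to 182 in *ovo-FLAG* libraries and 62.3 to 94.7 in controls. The somatic sum there was 13780 to 14509 in *ovo-FLAG* libraries and 18403 to 19045 in controls, *tj* averaging 4983 in *ovo-FLAG* libraries and 7350 in controls. *ovo* itself is in the germ cell list. *zpg* was at 0 in OSC controls, and *upd1*, a somatic marker, was at 0 in *ovo-FLAG* OSCs and in Δ*l(3)mbt* OSC controls. The part of these markers in the differences was not tested.

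With *ovo-FLAG*, 13.2% of all genes were higher and 10.3% lower in OSCs, and 16.2% higher and 14.2% lower in Δ*l(3)mbt* OSCs. Of the 14 partners in silencing, 1 was lower with *ovo-FLAG* in OSCs (*Mi-2*, a chromatin remodeller, −0.20) and 3 were higher in Δ*l(3)mbt* OSCs, *Nxt1* (0.27), *smt3* (0.25) and *ctp* (0.18). Among 14 tested heterochromatin genes, 1 was higher and 6 lower in OSCs, and 7 were lower in Δ*l(3)mbt* OSCs. The largest falls in OSCs were those of the histone demethylase gene *Kdm4B* (−0.46), *HP1b* (−0.37) and *XNP* (−0.31), and in Δ*l(3)mbt* OSCs those of *Kdm4B* (−0.57), *HP1b* (−0.44) and *vig* (−0.38). The median log2 fold change of that list was −0.17 in OSCs and −0.20 in Δ*l(3)mbt* OSCs, and that of all genes was −0.01 and 0.03. Among 12 tested paralogs, 4 were higher and 1 lower in OSCs and 4 were higher and 3 lower in Δ*l(3)mbt* OSCs, led by *aub* (3.92 in OSCs, 2.63 in Δ*l(3)mbt* OSCs) and *AGO3* (2.65 in OSCs, 2.11 in Δ*l(3)mbt* OSCs).

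**Figure D4:**
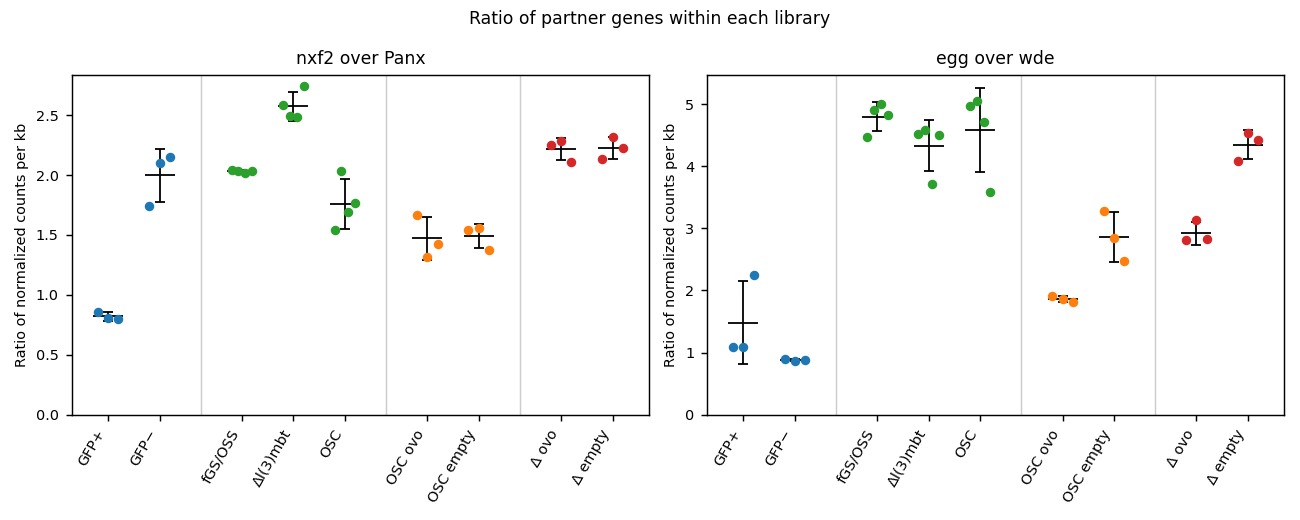
Ratio of normalized counts per kb of *nxf2* over *Panx* (left) and *egg* over *wde* (right) in each library (points; bars, mean ± SD; y axis from 0). The first ratio is 0.795 to 0.860 in GFP+ and 1.75 to 2.15 in GFP− cells, and the second is lower in every *ovo-FLAG* library than in every empty vector library of the same line.

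The gene most like each member over the 30 libraries, by Pearson correlation of log2 values centred on the table's mean among 5069 genes averaging 100 or more normalized counts in every table, is given as a description, since libraries of a group share their condition. The values were highest for *nxf2* with *Myo61F* (r = 0.98), *egg* with *pav* (0.95), *piwi* with *tral* (0.94), *mael* with *RPA2* (0.94) and *Panx* with *CG13252* (0.91). *HP1a* was most like *CG14647* (0.89), *Su(var)3-9* most like *Naa30A* (0.84), *arx* most like *Nedd8* (0.74) and *wde* most like *CG14464* (0.73).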

How the data were processed

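RNA-seq of 30 libraries was used. For the authors' counts, adapters were removed (cutadapt 1.18), reads were mapped (STAR 2.7.3a), and reverse-strand reads were assigned to genes by featureCounts (Subread 1.5.3), on the Ensembl release 100 annotation of BDGP6.28. The signal deposited by the authors is the count divided by the library's DESeq2 (1.30.1) size factor, normalized apart in each of 4 tables. Within a tolerance of 0.01 read, 100% of the values were whole multiples of a step, so whole reads were recovered, and 0 columns of sample values were left unused. The other deposited tables hold the authors' own comparisons, which were not used: the mean signal, the log2 fold change and its error, a Wald score, and the p-value as deposited, raw and adjusted.

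Genes averaging 2 or more normalized counts over the compared libraries were tested with limma (3.58.1, R 4.3.3; trend and robust) on log2(normalized count + 1), a scale that understates the change of low genes. Only the compared groups entered each fit, with no block. A gene was called at an adjusted p (Benjamini-Hochberg over all genes tested) under 0.05. The difference of *ovo-FLAG* effects was an interaction over 4 groups from 2 tables. edgeR (4.0.16), DESeq2 (1.42.0), other filters, pseudocounts and scalings, a replicate block and leaving out each library were alternatives. Keeping only OSC replicates 2 and 3, and the 2 within-library ratios, were added after seeing the data. All 9 genes were to be named, with at most 3 called genes per direction of each list. The members, lists and tests were chosen with earlier results of these data known. Scripts were tested on simulated data. Exon lengths come from the Ensembl release 115 annotation of the same assembly, without bases shared with another listed gene on the same strand. Replicate libraries differed by 1.52 to 83.1 times (median 4.96) the variance that counting gives. The highest values were those of OSC replicate 1 against OSC replicates 2, 3 and 4 (57.0, 67.4 and 83.1). Pairs of GFP+ libraries were at 17.1 to 22.3 and pairs of GFP− libraries at 4.03 to 5.04. The mean correlation of a library's log2 values with the others of its group was 0.865 to 0.876 in GFP+ cells. In GFP− cells it was 0.979 to 0.983. Chromatin, small RNA and single-cell data were not analysed here.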

Additional observations from a re-analysis of the deposited data

Results flagged for a closer look

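The *ovo-FLAG* effect on *mael* differed between the 2 lines, by 0.24 on the log2 scale (Δ*l(3)mbt* OSCs minus OSCs; limma interaction, adjusted p = 0.032). The interaction call was lost under 10 of 22 alternatives. *mael* was higher in 3 of 3 *ovo-FLAG* libraries of Δ*l(3)mbt* OSCs and lower in 3 of 3 of OSCs than every library with the empty vector of the same line. Groups did not overlap, in either direction, for 44.7% of all genes in Δ*l(3)mbt* OSCs and 37.4% in OSCs. The effect in OSCs alone was not past the threshold (limma adjusted p = 0.21), and the call in Δ*l(3)mbt* OSCs was lost under 9 of 16 alternatives. The 2 lines come from tables normalized apart. No library stood apart from the others of its group in the 27 sets of 4 tested (9 genes in the 3 untreated lines) by Dixon's test at the 95% level.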

How the results depend on the processing

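With *ovo-FLAG* in OSCs, 1 of the 9 genes was called (2 in the report) without a filter, after quantile normalization, under CPM scaling, with DESeq2 and with limma without trend, and 1 to 3 when a library was left out. In Δ*l(3)mbt* OSCs it was 1 (3 in the report) without a filter, with DESeq2, without trend and with the replicate block, and 1 to 4 when a library was left out. For the difference of these effects it was 0 (1 in the report) without a filter and without trend, and 0 to 1 when a library was left out; *mael* then had limma adjusted p up to 0.080. In fGS/OSS against Δ*l(3)mbt* OSCs it was 6 with all 3 lines in 1 fit, 8 after quantile normalization and 9 under CPM scaling and with edgeR (7 in the report). Of all genes these settings called 6264, 6730, 6768 and 6767 (6799 in the report). Under CPM scaling 2 of the 9 genes, and 3740 of all genes (3510 in the report), were called in Δ*l(3)mbt* OSCs against OSCs. Settings other than leaving out a library called 1147 to 2746 of all genes with *ovo-FLAG* in OSCs (2122 in the report). They called 1883 to 3589 in Δ*l(3)mbt* OSCs (2832) and 502 to 1066 for the difference (839). Over all genes, limma without trend called 1147 genes with *ovo-FLAG* in OSCs (2122 in the report; 72.6% higher against 56.3%), 1883 in Δ*l(3)mbt* OSCs (2832) and 502 for the difference (839, and 593 to 934 when a library was left out). In sorted cells 2344 to 4468 genes were called when a library was left out (3738 with all), the lowest counts coming without GFP− replicates 1, 2 or 3 (2344, 2379 and 2359). *piwi* turned from −0.03 to 0.14 (limma adjusted p = 0.0011) in Δ*l(3)mbt* OSCs with *ovo-FLAG* after quantile normalization. CPM scaling made 38.8% of calls higher in Δ*l(3)mbt* OSCs against OSCs (53.1% with the authors' scaling) and 66.3% with *ovo-FLAG* in Δ*l(3)mbt* OSCs (53.3%).

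Same-numbered libraries did not deviate together (correlations of −0.04 to 0.08), so the numbers were not taken to pair libraries. With the replicate block *Panx* lost its call in sorted cells (limma adjusted p = 0.083), *mael* and *nxf2* lost theirs with *ovo-FLAG* in Δ*l(3)mbt* OSCs (0.054 and 0.057), and *egg* gained one with *ovo-FLAG* in OSCs (0.0046). Depth limits *arx* and *Su(var)3-9* most, at 85.4 to 401 normalized counts.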
